A study of Mus musculus with 6 samples.

Results

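Eno1 with Eno1b and Eif3j1 with Eif3j2 are a pair of parent genes with a near-identical copy each, and these 4 genes are 4 of the 17645 that the deposited tables list in at least 1 library. In the suprachiasmatic nucleus (SCN) libraries labelled r1r2V, Eno1b was close to absent, whereas it took 13.1% to 25.6% of the reads of its pair in the libraries labelled V. Eif3j2 took 40.3% to 99.3% of its pair in r1r2V and 1.38% to 1.71% in V. The summed level of each pair overlapped between the groups. The genes were taken by symbol, and they were chosen by their measured levels, since earlier results of these same libraries had shown Eno1b low and Eif3j2 high in r1r2V. Their values are therefore a description, and no test is used to support them.

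Enolase is the enzyme of glycolysis that makes phosphoenolpyruvate, and Eno1 encodes its ubiquitous form, which in brain is prominent in glia. Eif3j1 encodes eIF3j, a loosely held subunit of the translation initiation factor eIF3, which binds the small ribosomal subunit and takes part in loading mRNA and in recycling ribosomes. A retrocopy arises when an mRNA is reverse transcribed and inserted elsewhere in the genome, so that it usually lacks the introns of its parent. Copies this alike share most of their reads, and a program that estimates expected counts has to divide those reads by the few positions that differ.

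The libraries came from female C57BL/6 mice killed in the dark at zeitgeber time (ZT, hours after lights on) 12 to 14, and each held RNA pooled from 2 SCN that had been punched from frozen sections with a needle. The r1r2V group had replicates 1, 4 and 5, and the V group had replicates 2, 3 and 4. The series title names a knockout of Rev-erbα and Rev-erbβ (Nr1d1 and Nr1d2) in GABAergic neurons, so r1r2V was read as the knockout and V as its control. The labels do not spell out either abbreviation, and the driver of the deletion, the age of the mice and the origin of the pooled SCN were not given in the sources used here. Without a statement that pools came from separate animals, error values measure only the spread between these samples, which may be technical.

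Total expected counts were 17040698 to 17566335 in r1r2V and 15729603 to 17780928 in V. Nr1d1 averaged 167 ± 25.7 CPM in r1r2V and 58.8 ± 3.27 CPM in V, and Nr1d2 averaged 242 ± 28.6 CPM in r1r2V and 175 ± 6.01 CPM in V (SD, n = 3 each). Neither targeted gene was lower in r1r2V, and Nr1d1 rose (edgeR adjusted p = 8.24e-05). Gene totals over all exons cannot show which exons were removed, so the direction of each comparison rests on the titles. All 8 SCN markers searched were detected, with Avp at 160 to 384 CPM in r1r2V and 247 to 360 CPM in V and Vip at 11.4 to 72.0 CPM in r1r2V and 51.8 to 85.8 CPM in V. In bulk tissue, fewer cells of a type and less RNA per cell cannot be told apart.

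Eno1 (gene 13806) lies at chr4:150236708-150248879 on the plus strand of GRCm38 (mm10). Its transcript has 12 exons, 11 of them coding. The coding sequence of Eno1b (gene 433182) lies in 1 exon of 2 in GENCODE M21. Eif3j1 (gene 78655) lies at chr2:122028580-122053632 on the plus strand with 8 exons, and Eif3j2 (gene 100042807) has 1 exon. Both copies therefore have the layout of a retrocopy, apart from the extra leader exon of Eno1b.

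The transcripts of Eno1b and Eno1 aligned over 1652 bases at 99.46% identity, with 9 differing bases and no gap. Of these, 8 lay in the coding sequence of 1305 bases and 1 lay after the stop codon. Each of the 8 was the last base of its codon, and translation with the standard code gave 0 differing amino acids over 434 codons. Of the 1692 windows of 100 bases in the Eno1b transcript, 61.8% occurred unchanged in Eno1. The stretches of the Eno1 coding sequence that hold the 8 positions are given because reads that cover them are among those that tell the copies apart. Capitals mark the bases at which Eno1b differs, and coding bases are counted from 1 at the start codon. The stretches lie at chr4:150246608-150246672, chr4:150246698-150246738, chr4:150247612-150247652 and chr4:150248088-150248494 on the plus strand, the last one joined across an intron.

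Eno1 coding bases 706 to 770: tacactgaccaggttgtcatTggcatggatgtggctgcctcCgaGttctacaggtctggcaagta
Eno1 coding bases 796 to 836: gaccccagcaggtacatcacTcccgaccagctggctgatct
Eno1 coding bases 1027 to 1067: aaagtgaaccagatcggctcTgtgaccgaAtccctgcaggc
Eno1 coding bases 1204 to 1244: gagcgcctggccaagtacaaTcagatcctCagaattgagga

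The Eif3j2 transcript aligned with Eif3j1 over 2379 columns at 99.41% identity, with 4 differing bases and 2 gaps. Eif3j2 carried 6 extra bases near its start codon and 4 extra bases after the stop codon. Of the 4 differing bases, 1 lay before the start codon and 3 lay after the stop codon, and the last 784 coding bases were identical. Of the 2280 windows of 100 bases in Eif3j2, 84.0% occurred unchanged in Eif3j1. The alignment covered 99.6% of the Eif3j2 transcript and 43.8% of the longer Eif3j1 transcript, against 92.2% of the Eno1b transcript and 81.5% of the Eno1 transcript in the enolase pair. That Eif3j1 transcript, of 5413 bases, is GENCODE's and runs past the RefSeq gene end at chr2:122053632, near which the aligned part stops. The deposited values are per RefSeq gene, so 43.8% does not measure how much of the quantified Eif3j1 is shared with Eif3j2. The first 41 coding bases of Eif3j1, at chr2:122028673-122028713 on the plus strand, are given because the only coding difference falls in their run of repeats. Capitals mark the start codon.

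Eif3j1 coding bases 1 to 41: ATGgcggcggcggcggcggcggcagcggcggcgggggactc

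**Figure D1:**
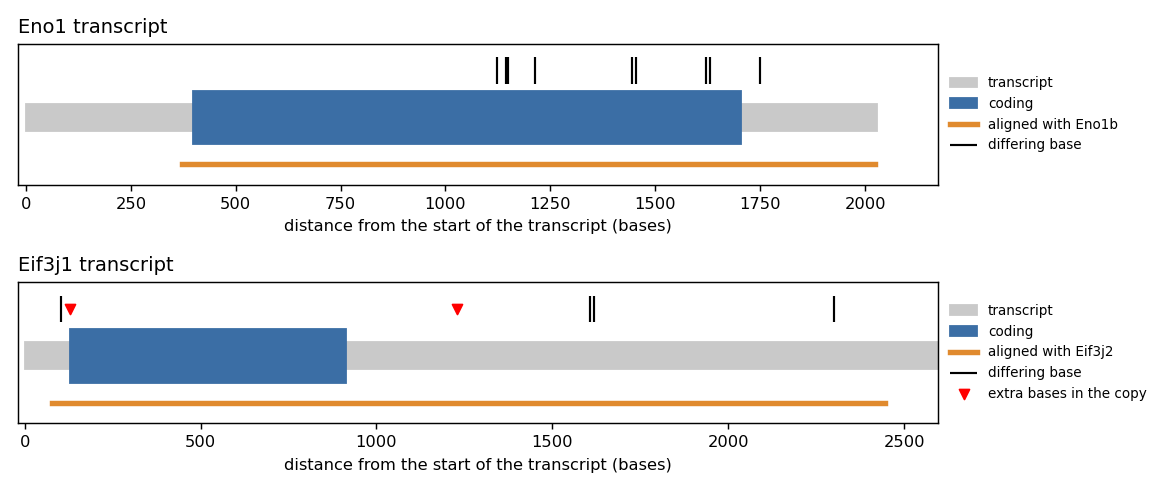
Positions at which each copy differs from its parent, along the Eno1 and the Eif3j1 transcript (horizontal axis, bases from the transcript start; the Eif3j1 transcript runs on to the right). Boxes are coding sequence, orange lines the aligned part, black ticks differing bases and red triangles extra bases in the copy. The 8 coding differences of the enolase pair lie in the later part of the coding sequence, and those of the Eif3j pair lie outside it, apart from the extra bases at the start codon.

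Eno1b, the enolase copy, was not listed in r1r2V replicate 1 and had 6.09 and 2.49 expected counts in replicates 4 and 5, against 3624, 1785 and 3299 in V replicates 2, 3 and 4. The groups did not overlap, and over the group there were 8.58 counts in r1r2V and 8708 in V. Where Eno1b was not listed, 3 counts would be 0.0232% of the reads of the pair. The limit on Eno1b itself is higher, since only reads over positions that differ tell the copies apart. Scaled to library size, Eno1b averaged 0.165 ± 0.176 CPM in r1r2V and 171 ± 61.4 CPM in V (SD, n = 3 each), a log2 ratio of -10.02. By FPKM, which divides by transcript length, it held rank 15369 of 17645 genes in r1r2V and rank 845 in V.

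The share of Eno1b in its pair was 0%, 0.0498% and 0.0167% in r1r2V replicates 1, 4 and 5, and 25.3%, 13.1% and 25.6% in V replicates 2, 3 and 4. V replicate 3 stood apart from the other V libraries: its 95% Wilson interval was 12.5% to 13.6%, against 24.6% to 26.0% in replicate 2 and 24.8% to 26.3% in replicate 4. Such intervals cover counting error only and take estimated counts as if they were observed. From deposited FPKM the mean share was 0.0226% in r1r2V and 21.7% in V, so the transcript lengths made little difference to it.

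Eno1 itself had 439, 401 and 498 FPKM in r1r2V, against 348, 388 and 352 FPKM in V. Each r1r2V library was above each V library, and the means were 446 ± 48.7 FPKM in r1r2V and 363 ± 22.3 FPKM in V (SD, n = 3 each). In CPM the log2 ratio was 0.30, and edgeR did not call Eno1. The share of all genes tested whose groups did not overlap is not given here. Nothing is therefore read from the lack of overlap in Eno1 or in the other members. V replicate 3, which had the smallest share of Eno1b, had the highest Eno1 of the V libraries.

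Eif3j2, the copy of the initiation factor gene, had 976, 462 and 492 expected counts in r1r2V replicates 1, 4 and 5, against 15.8, 15.8 and 18.3 in V replicates 2, 3 and 4. Every r1r2V library was above every V library. The means were 37.3 ± 16.8 CPM in r1r2V and 0.981 ± 0.156 CPM in V (SD, n = 3 each), a ratio of 38.0 and a log2 ratio of 5.25.

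Eif3j1, the parent, had 7.17, 683 and 597 expected counts in r1r2V replicates 1, 4 and 5, against 1134, 1100 and 1054 in V replicates 2, 3 and 4. It was lower in each r1r2V library than in any V library, and r1r2V replicate 1 was near 0. The means were 24.8 ± 21.3 CPM in r1r2V and 64.3 ± 2.45 CPM in V (SD, n = 3 each), a log2 ratio of -1.37. Without r1r2V replicate 1 that log2 ratio was -0.80.

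The r1r2V libraries did not share 1 division of the Eif3j pair. Eif3j2 took 99.3% of the pair in replicate 1 (95% Wilson interval 98.5% to 99.7%), 40.3% in replicate 4 (37.5% to 43.2%) and 45.2% in replicate 5 (42.2% to 48.1%). In V it took 1.38%, 1.41% and 1.71%, with intervals that overlapped one another. Replicate 1 thus held nearly all reads on the copy, replicates 4 and 5 held somewhat under an even division, and the V libraries held nearly all on the parent. The mean difference was 60.1 percentage points, and it was 41.2 without r1r2V replicate 1. The enolase pair showed no such gradation in r1r2V, where all 3 libraries were near 0.

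**Figure D2:**
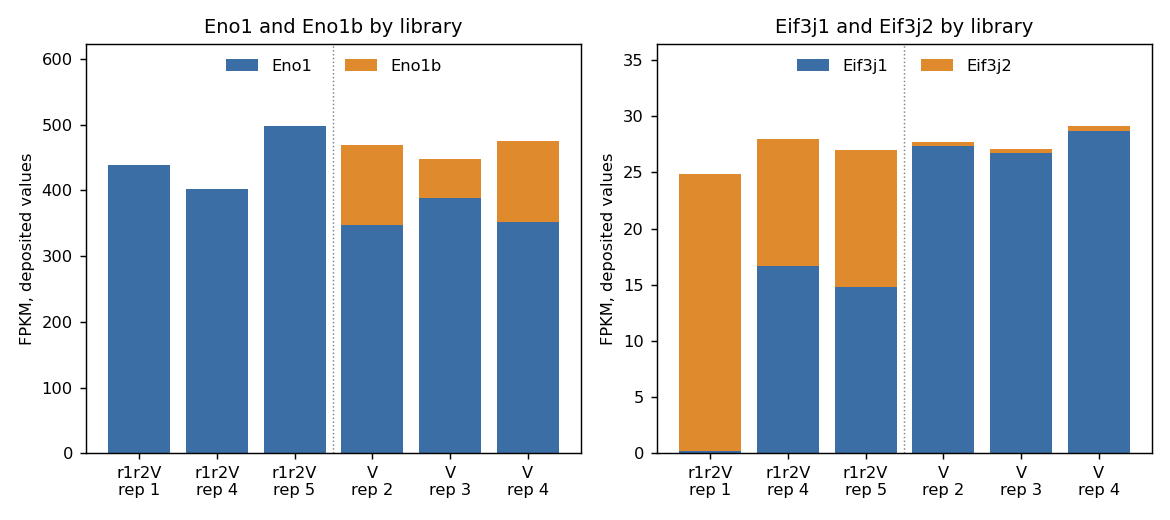
Deposited FPKM of each parent (blue) with its copy stacked on it (orange) in the 3 r1r2V and the 3 V libraries, for the enolase pair (left) and the Eif3j pair (right). Orange cannot be seen in the enolase bars of r1r2V and fills almost the whole Eif3j bar of r1r2V replicate 1, while bar heights overlap between groups.

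The sum of Eno1 and Eno1b was 752, 702 and 869 CPM in r1r2V, against 809, 769 and 819 CPM in V. The groups overlapped, with means of 774 ± 85.4 CPM in r1r2V and 799 ± 26.2 CPM in V (SD, n = 3 each) and a log2 ratio of -0.05. The sum of Eif3j1 and Eif3j2 was 57.0, 65.8 and 63.5 CPM in r1r2V, against 64.9, 62.9 and 68.0 CPM in V. These groups overlapped too, with means of 62.1 ± 4.53 CPM in r1r2V and 65.3 ± 2.59 CPM in V (SD, n = 3 each) and a log2 ratio of -0.07.

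Within each library the sum of a pair's expected counts came out whole. It was within 0.015 of a whole number in 6 of 6 libraries for each pair, although neither Eif3j gene alone was whole in any library, and Eno1 and Eno1b alone were whole in 1 library each, the one in which Eno1b was not listed. The summed counts were 12953, 12228 and 14904 for the enolase pair in r1r2V and 14336, 13656 and 12905 in V. For the Eif3j pair they were 983, 1145 and 1089 in r1r2V and 1150, 1116 and 1072 in V. GENCODE M21 holds 13 processed pseudogenes that align with Eno1 over at least 300 bases, at 75.7% to 99.6% identity, and 2 of them reach 95%. None of these is among the genes analysed here. Apart from Eif3j2, no annotated transcript aligned with Eif3j1 over that length.

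All 4 genes passed the filter on low counts, and the 60 genes that edgeR's quasi-likelihood test called include 2 of the 4, Eno1b and Eif3j2. Over all 14438 genes tested, 0.416% were called, 0.298% of them as higher and 0.118% as lower in r1r2V. The members were chosen on this contrast, so nothing is read from their count. At an unadjusted p under 0.05, 571 of the 14438 genes were higher and 524 lower, which is the background for unadjusted counts of neighbours, partners and markers.

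Among 93 other pairs of near-identical genes with a summed mean of at least 1 CPM, the share of a copy in its pair differed between the groups by a median of 0.772 percentage points. It differed by over 10 points in 2 pairs and by over 50 points in 0. The enolase and Eif3j pairs, at -21.3 and 60.1 points, lay outside the range of these pairs, whose largest difference was 11.9 points. The members were chosen on this contrast, so nothing is read from their place outside that range. Pairs were defined by shared transcript sequence alone, which overlapping genes at 1 locus can also have. Families of more than 2 copies were not counted. When copies had to align over at least 0.8 of the shorter transcript, which splits some families into pairs, Gm10408 with D830030K20Rik differed by 51.7 points and Gm37013 with Pcdha4 by -21.4, so that the range no longer excluded the enolase pair. Both were named after their values were seen. The 13 pairs that join a single-exon with a multi-exon copy differed by at most 4.38 points, in Rsc1a1 with Ddi2, which both lie on chromosome 4. This layout alone does not show that a pair is a retrocopy with its parent. In some of the 13 the copy held almost none of the pair, such as Rpl32l with Rpl32 (0.0152% in r1r2V and 0% in V). In others the division was nearer to even, such as Sap18 with Sap18b (43.5% in r1r2V and 45.1% in V).

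The other pair with the largest difference was Mfap1b with Mfap1a, which encode a protein of the spliceosome. Mfap1b took 56.1%, 42.8% and 43.2% of the pair in r1r2V replicates 1, 4 and 5, against 37.0%, 36.2% and 33.2% in V replicates 2, 3 and 4. Replicate 1 of r1r2V was the highest library. The groups did not overlap for this pair, and they did not overlap for 12 of the 93 pairs in all. Mfap1a starts 0.536 Mb and Mfap1b 0.567 Mb before Eif3j1 on the same chromosome. Kifc1 with Kifc5b, which encode kinesin motors, differed by -10.6 points and overlapped between the groups. C1s2 with C1s1, which encode a complement protease, differed by -9.93 points on 7 to 9.28 counts of C1s2 per library.

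**Figure D3:**
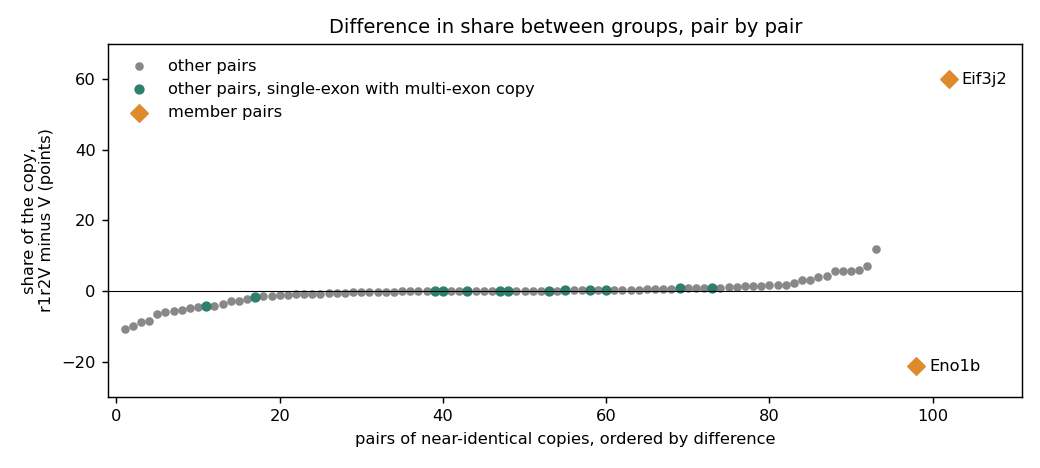
Share of a copy in its pair, r1r2V minus V in percentage points (vertical axis), for 93 other near-identical pairs ordered by that difference (grey, with the 13 single-exon and multi-exon pairs in green) and for the 2 member pairs (orange). Other pairs lie between -10.6 and 11.9 points, and Eno1b and Eif3j2, which were chosen on this contrast, lie at -21.3 and 60.1.

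**Figure D4:**
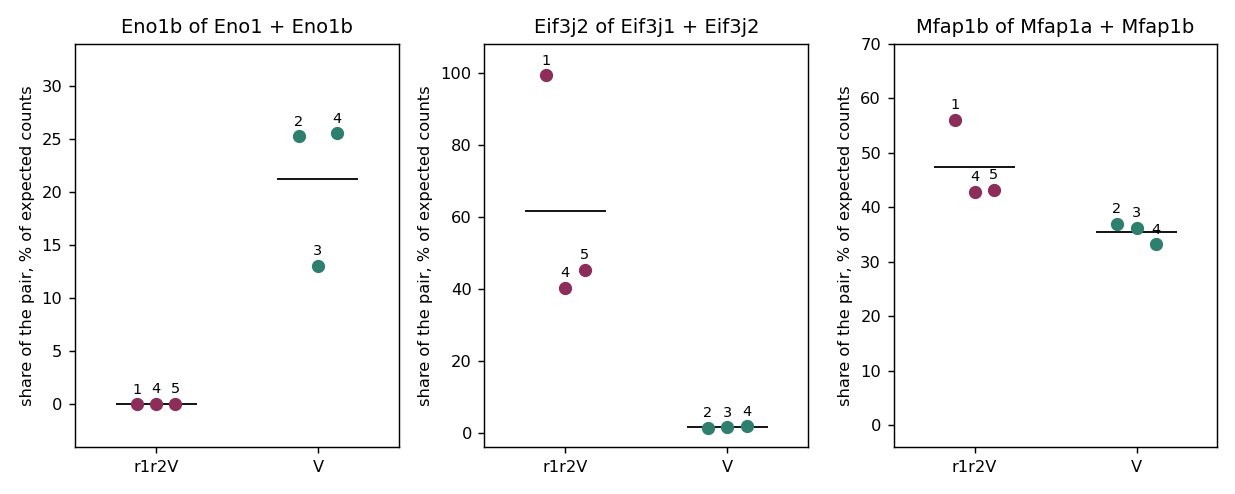
Share of Eno1b, Eif3j2 and Mfap1b in its pair as a percentage of the pair's expected counts, by group (points are libraries with their replicate number, lines are means of 3 libraries). For Eif3j2 and Mfap1b, r1r2V replicate 1 is above replicates 4 and 5, and these are above all V libraries. For Eno1b, V replicate 3 is below the other V libraries.

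None of the nearest tested genes of the 4 members was called, against 0.416% over all genes tested. At that share, lists this short would hold few calls or none. Of the 10 tested genes around Eif3j1 (5 on each side), which include Mfap1a, 0 were called by edgeR and 2 had an unadjusted p under 0.05. Their log2 fold changes ran from -0.22 to 0.23 and were positive in 1 of the 10, with a median of -0.12, against 0.01 over all genes tested. Replicate 1 of r1r2V was the lowest of the 6 libraries in 4 of the 10, and r1r2V replicates 4 and 5 in 2 each. Around Eno1, 0 of 10 were called and 1 had an unadjusted p under 0.05, with log2 fold changes from -0.19 to 0.34. These were positive in 3 of the 10, with a median of -0.04. Eno1b and Eif3j2 both lie on chromosome 18, apart from their parents. There 0 of 10 neighbours were called around each, with log2 fold changes from -0.04 to 0.14 around Eno1b and from -0.20 to 0.29 around Eif3j2, and none with an unadjusted p under 0.05. They were positive in 8 of the 10 around Eno1b (median 0.06) and in 7 of the 10 around Eif3j2 (median 0.10).

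The genes most like each member over the 6 libraries were searched among 13621 genes with no near-identical copy and a mean of at least 1 CPM. Likeness was the root mean square difference between log2(CPM + 0.5) values, each centred on its own mean, so that 0 is an identical pattern. For Eif3j1 the nearest were Anxa8 (1.16), Bub1b (1.5) and Spint1 (1.6), against 2.2 for a flat line. Anxa8, an annexin gene on chromosome 14, had 0, 2.59 and 0.816 CPM in r1r2V replicates 1, 4 and 5, against 7.67, 7.94 and 8.25 CPM in V. Bub1b, a mitotic checkpoint kinase gene on the chromosome of Eif3j1, had 0.174, 0.977 and 0.641 CPM in r1r2V, against 3.72, 4.06 and 3.30 CPM in V. Spint1, a protease inhibitor gene on that chromosome, had 0.696, 2.07 and 2.62 CPM in r1r2V, against 3.89, 4.17 and 3.11 CPM in V. In all 3, as in Eif3j1, r1r2V replicate 1 was the lowest library, which picking them for likeness to Eif3j1 favours.

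For Eif3j2 the nearest were Myh6 (1.12) and Fam227b (1.13), against 2.32 for a flat line. Fam227b, also on the chromosome of Eif3j1, had 3.07, 2.28 and 2.63 CPM in r1r2V, against 0.0564, 0.113 and 0.128 CPM in V. Myh6, a cardiac myosin gene on chromosome 14, had 6.67, 3.64 and 11.3 CPM in r1r2V, against 0.413, 0.948 and 0.530 CPM in V. Replicate 1 was the highest library for Fam227b, as for Eif3j2, and replicate 5 was the highest for Myh6. For Eno1b the nearest were again Anxa8 (2.69) and Bub1b (3.02), then the ribonuclease gene Rnase6 (3.21) on chromosome 14, against 4.01 for a flat line. For Eno1 they were Stab1 (0.03), Apool (0.04) and Rras2 (0.05), on chromosomes 14, X and 7, against 0.18 for a flat line. Stab1, a scavenger receptor gene, had 7.60, 7.07 and 8.51 CPM in r1r2V, against 6.15, 6.87 and 6.28 CPM in V. The nearest gene of each member lay on chromosome 14, but Anxa8 was the nearest for both Eno1b and Eif3j1. The next nearest gene of each lay on chromosome 2 or X. The share of chromosome 14 among the genes searched is not given here, so nothing is read from it. All of these genes were picked for their likeness over the same libraries. A highest or lowest library shared with the member is therefore favoured by the choice, and no test of them is given.

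The partners of eIF3j did not pass the test, and over all 56 tested partner genes described here DESeq2 too called 0. Of 12 other eIF3 subunits, 0 were called higher and 0 lower, against 0.416% called over all genes tested. At that share a list this short would hold few calls or none. The log2 fold change was positive in 8 of the 12, with a median of 0.03, against 0.01 over all genes tested. Eif3m, a subunit of the complex's octamer, was the only one with an unadjusted p under 0.05. It had 114, 130 and 122 CPM in r1r2V and 111, 102 and 99.2 CPM in V (edgeR log2 fold change 0.23, adjusted p = 0.504), and it was named after its values were seen. Eif3a, the largest scaffold subunit, averaged 229 ± 13.5 CPM in r1r2V and 220 ± 3.68 CPM in V, Eif3h 204 ± 6.29 CPM in r1r2V and 198 ± 13.0 CPM in V, and Eif3c 175 ± 6.95 CPM in r1r2V and 172 ± 1.59 CPM in V (SD, n = 3 each). The summed level of these 12 genes was 1617 to 1676 CPM in r1r2V and 1564 to 1641 CPM in V.

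Of 20 other initiation factors and their regulators, 0 were called higher and 0 lower. The log2 fold change was positive in 16 of the 20, with a median of 0.05. Eif4a2, an mRNA helicase gene, averaged 1237 ± 106 CPM in r1r2V and 1207 ± 52.1 CPM in V (SD, n = 3 each). Eif4g2, a scaffold gene, averaged 797 ± 100 CPM in r1r2V and 713 ± 35.9 CPM in V, and Eif1, a start codon selection factor gene, 498 ± 22.4 CPM in r1r2V and 493 ± 9.83 CPM in V (SD, n = 3 each). None of the 20 had an unadjusted p under 0.05.

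Of 21 tested genes of glycolysis outside the enolase step, 0 were called higher and 0 lower, and none had an unadjusted p under 0.05. The log2 fold change was positive in 6 of the 21, with a median of -0.05. Gapdh averaged 2516 ± 317 CPM in r1r2V and 2534 ± 69.9 CPM in V, Pkm, the pyruvate kinase gene, 1718 ± 116 CPM in r1r2V and 1723 ± 3.71 CPM in V, and Aldoa, an aldolase gene, 1496 ± 118 CPM in r1r2V and 1539 ± 43.3 CPM in V (SD, n = 3 each). Their summed level was 10247 to 12068 CPM in r1r2V and 11078 to 11526 CPM in V.

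The other enolase genes did not pass either. Eno2, the neuronal form, had 313, 292 and 343 FPKM in r1r2V and 337, 325 and 348 FPKM in V (edgeR log2 fold change -0.09, adjusted p = 0.769). Eno3, the muscle form, had 6.57, 4.81 and 5.44 FPKM in r1r2V and 5.49, 6.21 and 5.96 FPKM in V (log2 fold change -0.08, adjusted p = 0.900). Eno4, a form found in sperm, had 3.23, 4.39 and 2.94 FPKM in r1r2V and 4.01, 4.19 and 4.82 FPKM in V (log2 fold change -0.29, adjusted p = 0.686). By FPKM, Eno1 was the most abundant enolase in every library and Eno2 was next. In V, Eno1b came after Eno2, at 101 ± 36.0 FPKM (SD, n = 3), above Eno3 and Eno4 in each V library. In r1r2V, Eno1b was the lowest enolase in each library.

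**Figure D5:**
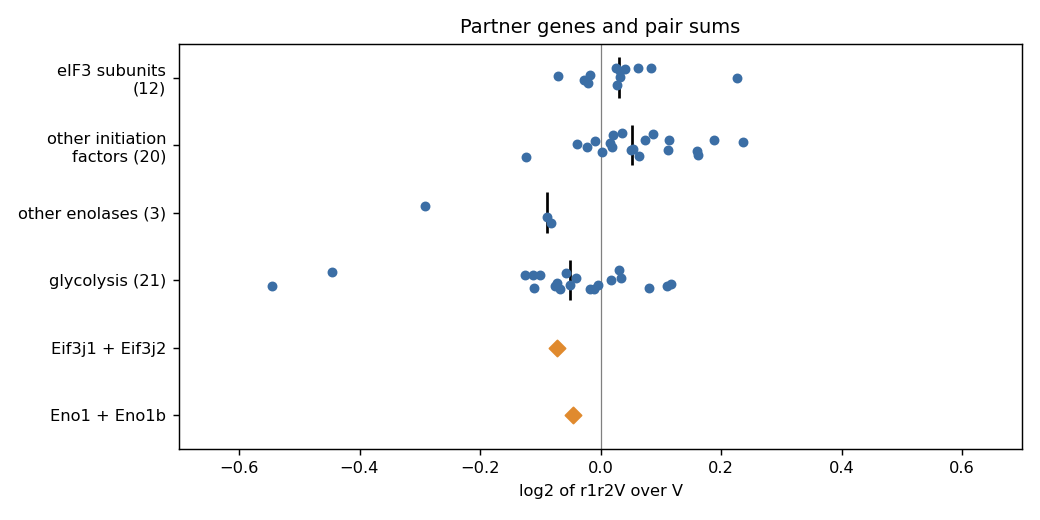
Log2 of r1r2V over V (horizontal axis) for tested genes of eIF3, of other initiation factors, of the other enolases and of glycolysis (points, edgeR log2 fold changes, with the list median as a bar) and for the sum of each member pair (diamonds, log2 ratio of mean CPM). No point was called, and both sums lie close to 0.

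Markers of the cell types that an SCN punch can hold gave 0 called of 34 tested, against 0.416% over all genes tested. These were lists for neurons, astrocytes, oligodendrocytes, microglia, endothelial cells and red blood cells, and 1 marker had an unadjusted p under 0.05. Of the 8 SCN markers, counted apart, 0 were called, with 1 higher and 1 lower at an unadjusted p under 0.05. Rgs16 averaged 101 CPM in r1r2V and 55.8 CPM in V (edgeR adjusted p = 0.0588), and Lhx1 2.95 CPM in r1r2V and 4.13 CPM in V (edgeR adjusted p = 0.546). The summed astrocyte markers, of which Aldoc is also a glycolysis gene, ran from 2471 to 2907 CPM in r1r2V and from 2498 to 2708 CPM in V. Summed neuron markers ran from 3086 to 3550 CPM in r1r2V and from 3277 to 3341 CPM in V. No marker was at 0, and the ranges of these sums overlapped between groups. The part of cell composition in the levels of the members was not tested.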

How the data were processed

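RNA-seq values per gene were used from 6 SCN libraries. Per the file headers, the authors deposited an expected count, an estimated read number that need not be whole, and an FPKM value (fragments scaled to transcript length and library size) for each RefSeq gene. Per the submitters' processing notes, tools included RSEM 1.2.12, Bowtie2 2.2.5 and HISAT2 2.0.4, with build mm10. What each tool did, and whether strand was used, was not stated there. Genes a table did not list were set to 0.

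Expected counts were rounded and tested with edgeR 4.0.16 in R 4.3.3 (filterByExpr with a minimum count of 10, trimmed mean of M-values scaling, quasi-likelihood test) with Benjamini-Hochberg adjustment over 14438 genes and a threshold of 0.05. CPM values use the scaled library sizes. Fold changes and ratios are r1r2V over V. Copies were found with BLAST+ 2.17.0 among GENCODE M21 transcripts of 17566 genes (99.6%), at 95% identity over at least 0.5 of the shorter transcript. Coordinates are RefSeq's for GRCm38, and sequences are GENCODE's.

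Differences among libraries of a group exceeded counting noise alone (chi-square per degree of freedom 11.6 to 13.5 in r1r2V and 3.83 to 4.56 in V), so no library was treated as a second deposit of another, which does not show that they are independent. Named genes were the members, called genes and the 3 most abundant of each partner list, the other enolases, the 3 most similar genes per member (1 is not reported here), the 3 other pairs with the largest difference and the targeted genes. The members and lists were chosen with earlier results of these data known. Alternatives were DESeq2 1.42.0, limma 3.58.1 on log2(FPKM + 1) and log2(FPKM + 0.1), other scalings and filters, copies summed, other definitions of copies and leaving out each library.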

Additional observations from a re-analysis of the deposited data

How the results depend on the processing

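No paired analysis was possible because number 4 alone occurs in both groups. Over all genes, DESeq2 called 69 higher and 40 lower, and edgeR with copies summed called 26 higher. Without 1 library, 19 to 52 were higher and 7 to 24 lower (leaving out V replicates 2, 3 and 4 gave 20, 20 and 19 higher and 7, 8 and 7 lower). The cause was not tested for any of these. No gene of the 4 partner lists was called in any of the 15 fits. Without 1 library, the log2 ratio ran from -11.21 to -9.44 for Eno1b (lowest without r1r2V replicate 4, which held most of its counts there), 0.21 to 0.37 for Eno1, -1.87 to -0.80 for Eif3j1 and 4.81 to 5.44 for Eif3j2, and for the sums from -0.14 to 0.02 (enolase) and -0.12 to -0.01 (Eif3j). The difference in share ran from -25.4 to -19.1 points for Eno1b and from 41.2 to 70.7 for Eif3j2. Other scalings and FPKM moved none of these by more than the spread between libraries. Other pairs over 10 points numbered 6 at 90% identity, 4 at 0.8 of the shorter transcript, 1 at a minimum of 10 CPM, 6 with FPKM and 3 to 5 without 1 library (4, 5 and 4 without V replicates 2, 3 and 4). At 0.8 of the shorter transcript, 1 pair, Gm10408 with D830030K20Rik, was over 50 points (51.7), so there a pair other than the members also passed that limit. Log2 fold changes near 0 changed sign without 1 library for Eif3h (-0.0128 to 0.0758), Eif4a2 (-0.0184 to 0.102), Eif1 (-0.0193 to 0.0456), Eno3 (-0.219 to 0.0173), Gapdh (-0.109 to 0.0761), Pkm (-0.057 to 0.044) and Aldoa (-0.107 to 0.00984). Depth limits r1r2V values of Eno1b, which rest on 8.58 counts.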
